A study of Bos taurus with 48 samples.

Results

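Intercaruncular endometrium is the gland-bearing lining of the cow uterus between the caruncles, the raised sites where a placenta later attaches. Pregnant and cyclic cows were compared in this tissue, which was chosen by the tissue label alone and makes up 22 of the 44 samples of the study (12 pregnant, 10 cyclic). The animals were lactating Holstein Friesian dairy cows of mixed New Zealand and North American ancestry with synchronized estrus cycles. The pregnant cows had received a blastocyst of grade 1 quality by embryo transfer on day 7, and the cyclic cows had not. Endometrium was sampled at slaughter on day 17 in both states. Embryo size was labelled large (over 20 cm and over 75 mg) in 7 pregnant cows and small (under 20 cm and under 40 mg) in 5, and 6 pregnant cows each were labelled fertile and sub-fertile. Each cow is 1 replicate and is named here by the state and number of its label, Pregnant or Non-Pregnant (cyclic).

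Uterine glands secrete and transport the nutrients, growth factors and enzymes of the uterine fluid, on which the elongating conceptus depends before a placenta has formed. In a cyclic cow at this time, oxytocin acting on its endometrial receptor releases prostaglandin F2 alpha, which ends the life of the corpus luteum. In a pregnant cow the trophoblast secretes interferon tau, which raises interferon-stimulated genes in the endometrium and holds back the oxytocin receptor.

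A level is given here as the log2 ratio of a cow's sample (Cy5) to a pool of all 44 samples (Cy3) on the same array, so that 0 is the level of the pool. A change is the difference of the group means, pregnant minus cyclic, in log2 units unless given as a fold, with its standard error (SE). It was tested by limma over 14711 probes, and p-values were adjusted by Benjamini-Hochberg. A probe is said to have risen or fallen when the change reached 1.5-fold and the adjusted p lay under 0.05, and this is called the threshold. Of the probes tested, 1071 (7.28%) passed it, 590 (4.01%) rising and 481 (3.27%) falling in pregnant cows. Over all probes tested, the changes had a median of -0.01. In these bulk samples, fewer cells of a type and less RNA per cell cannot be told apart.

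The slide and the state largely coincide, which bears on every result. The 22 arrays lie on 7 slides, and 1 slide holds both states, namely pregnant cows Pregnant_3807, Pregnant_9921 and Pregnant_3803 and the cyclic cow Non-Pregnant_3972. With a random slide block 656 probes passed, 419 rising and 237 falling. With a fixed slide block, which leaves that 1 slide to compare the states, 129 passed, 93 rising and 36 falling. Of the 481 falling probes, 373 differed in the same direction on the shared slide, with a median difference of -0.46, and of the 590 rising probes 581 did, against 9660 of all 14711 probes. The 4 cows of that slide also took part in choosing these probes, so the counts are a description. A random slide block lost the call of 31 probes named below. On the shared slide 27 of these had the direction of the call and 4 the opposite one. In 14 of the 27 the difference was at least as large as the change, and in ZNRF3 it was -0.01. Cows Pregnant_9790 and Non-Pregnant_9786 were each the only 1 of these 22 arrays on its slide, in a separate scan batch. They stood apart from the others on the third and second principal component. Without both, 1129 probes passed. Spots well above background made up 69.81% to 84.03% of an array in pregnant and 68.8% to 76.07% in cyclic cows, and no spot was saturated.

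Marker genes of each cell type were examined in the intercaruncular samples. Levels of caruncular samples were not set beside them, so they do not check the tissue label. All 22 epithelial and gland markers on the array were above background in at least 6 pregnant and 5 cyclic cows. Their mean ratio to the pool was 0.912 to 1.29 in pregnant and 0.825 to 1.19 in cyclic cows, and the states overlapped. Of these 22 genes, CLDN4, CDH1 and CLDN3 rose (13.6%) and KRT7 fell (4.55%), beside 4.01% and 3.27% of all probes. Of 17 ciliated-cell markers tested, none passed the threshold. FOXA2, a transcription factor of the glands, had a change of 0.03 (adjusted p = 0.939 by limma), and the epithelial adhesion molecule EPCAM one of -0.01 (adjusted p = 0.978). Of 19 trophoblast markers on the array 3 could be tested and none passed, and 5 were above background on no array, IFNT2, PAG11, PAG21, CSH1 and PRP1.

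Markers of other cell types differed between the states, as shown in the plot of marker lists by cow. Among 15 smooth muscle markers 7 fell (ACTA2, CNN1, TAGLN, ACTG2, MYLK, MYH11 and TPM2), and the list's mean ratio ranged from 0.469 to 1.09 in pregnant and from 0.799 to 1.52 in cyclic cows. Among 16 endothelial markers 5 fell (PECAM1, PLVAP, TIE1, TEK and EMCN), with a mean ratio of 0.685 to 1.21 against 1.03 to 1.69. Among 14 stromal markers 4 fell (COL3A1, COL1A1, COL1A2 and FAP), with 0.762 to 1.19 against 1.03 to 1.85. The stromal proteoglycans decorin (DCN) and lumican (LUM) had changes of -0.11 and -0.03 and did not pass. Among 18 macrophage markers 9 rose, with a mean ratio of 0.684 to 1.86 against 0.568 to 0.809, while 1 of 24 leukocyte and lymphocyte markers rose (KLRB1). The largest change of the macrophage list was 2.45, in SIGLEC1, and the list's median change was 0.60. Of the smooth muscle, endothelial and stromal lists 46.7%, 31.2% and 28.6% fell, and of the macrophage list 50% rose. Over all probes tested 3.27% fell and 4.01% rose, and the leukocyte list (4.17% rising) lay near that. The ranges of the states overlapped in each of these lists. Their part in the changes of matrix, vessel and muscle genes below was not tested.

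**Figure D1:**
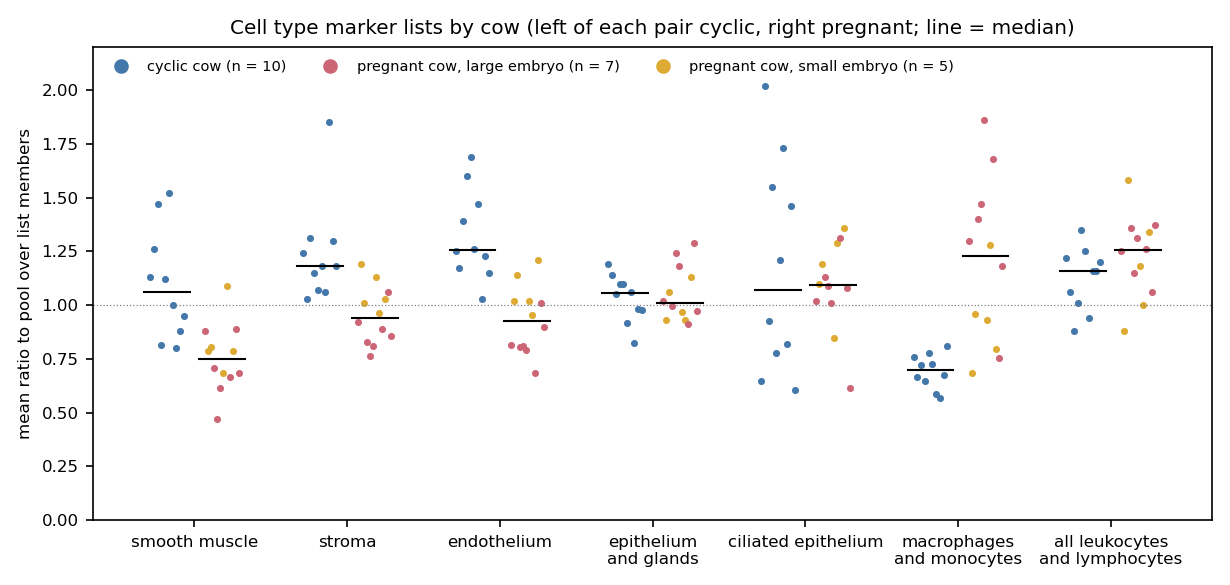
Mean ratio to the pool over the members of 7 marker lists, 1 point per cow (10 cyclic left, 12 pregnant right of each pair), with the group median as a line; the vertical axis is linear and starts at 0. Smooth muscle, stroma and endothelium lie lower in pregnant cows, macrophages higher, and the epithelium and gland list overlaps between the states.

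The cows themselves showed how far the 2 sets of probes moved together. The median level over the 481 falling probes was 0.507 to 0.767 in cyclic cows and -0.416 to -0.166 in the 7 cows with a large embryo. Of the 5 cows with a small embryo, 4 lay between these ranges (Pregnant_932 at 0.183, Pregnant_9246 at 0.0507, Pregnant_977 at 0.124 and Pregnant_3807 at 0.127), and the remaining one, Pregnant_3956, was at -0.173. The states chose these probes, so their separation is a description. On each of the 3 slides that hold both embryo sizes, every small-embryo cow had a higher median over the falling probes than every large-embryo cow. The falling probes had a median change of -0.90 in large-embryo and -0.59 in small-embryo cows against the same cyclic cows, and 411 of 481 changed more in the former, against 9735 of all 14711 probes. The pregnant mean that chose these probes was made of 7 large-embryo and 5 small-embryo cows, which favours probes that changed more with large embryos. Taken alone against the 10 cyclic cows, large-embryo cows passed in 1675 probes (803 falling) and small-embryo cows in 241 (56 falling), the groups being 7 and 5 animals.

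**Figure D2:**
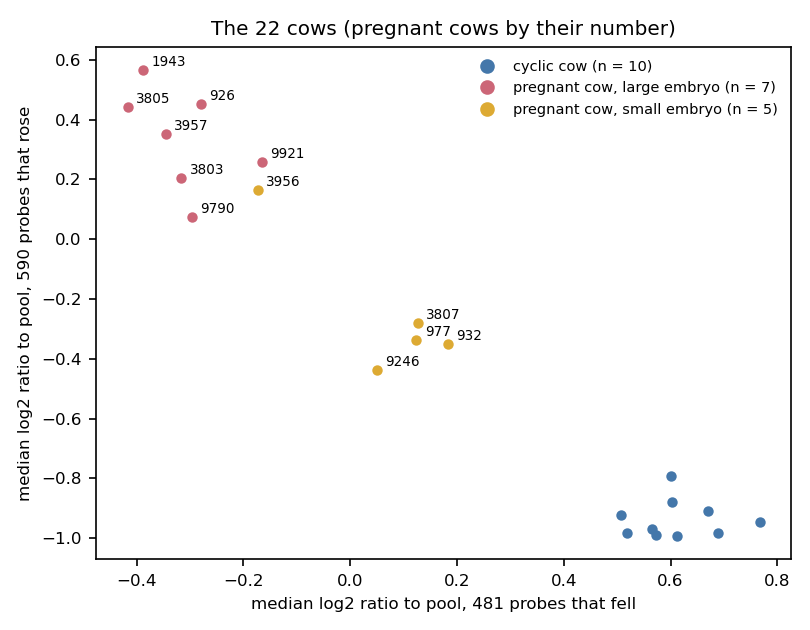
Each point is 1 of the 22 cows, placed by its median log2 ratio to the pool over the 481 probes that fell (horizontal) and the 590 that rose (vertical), and coloured by state and embryo size. The probes were chosen by state, and 4 small-embryo cows lie between the cyclic cows and the large-embryo cows.

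The falls were many and mostly small. Their median size was 1.69-fold, 89 of 481 exceeded 2-fold and 4 exceeded 4-fold, against 237 and 70 of the 590 rising probes. In 294 of the falling probes every pregnant cow was below the cyclic mean, while over all 14711 probes 2088 had every pregnant cow on the side of that mean to which they changed. The 294 were called on the same cows. Levels of the 2 states did not overlap at all in 167 probes (1.14%), of which 131 were among the rising and 20 among the falling probes. Of the falling probes, 98 carried no gene symbol.

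The largest fall of a gene with a name lay in the luteolytic pathway. The oxytocin receptor (OXTR) was at -3.88 to 1.03 in pregnant cows (median -2.52) and at -0.59 to 2.25 in cyclic cows (median 1.04). Of 12 pregnant cows, 10 lay below every cyclic cow, and cows Pregnant_3803 (1.03) and Pregnant_9790 (-0.38) lay among the cyclic ones. OXTR fell by 2.94 log2 units (SE 0.48, adjusted p = 0.000182 by limma), a 7.69-fold change, and by about as much with large (-2.81) as with small embryos (-3.14). On the slide that holds both states the difference was -0.44, since cow Pregnant_3803 was the highest of the pregnant and cow Non-Pregnant_3972 (-0.59) the lowest of the cyclic animals. The unnamed transcript EE981171, which the array's description places on cattle chromosome 22 at 14334527 to 14335057 (build not given in the sources used here), had the largest fall of all named probes, 3.28 log2 units (SE 0.52, adjusted p = 0.000158). Its levels were -4.35 to 0.32 in pregnant (median -3.13) and -1.12 to 2.03 in cyclic cows (median 1.25). Cow Pregnant_3803 was again the highest pregnant animal (0.32), as for OXTR, and the difference on the shared slide was -0.97.

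Of 21 genes of luteolysis and prostaglandins tested, 3 fell (14.3%) and 2 rose (9.52%), beside 3.27% and 4.01% of all probes. The median change was -0.23. PTGES, the synthase of prostaglandin E2, fell by 0.91 log2 units (SE 0.21, adjusted p = 0.00453 by limma), from 0.28 in the median cyclic to -0.72 in the median pregnant cow. SLCO2A1, the carrier that takes prostaglandins across the cell membrane, was at -0.81 to 0.41 in pregnant and -0.96 to 1.83 in cyclic cows and fell by 1.00 log2 units (adjusted p = 0.0131). Every pregnant cow was below the cyclic mean of SLCO2A1, but the ranges overlapped throughout, and a second probe fell by 0.84 log2 units. PLA2G4A, the phospholipase that frees arachidonic acid, rose by 0.69 (adjusted p = 0.0273). CBR1, a carbonyl reductase that can turn prostaglandin E2 into F2 alpha, rose by 0.78 (adjusted p = 0.0142). With a random slide block neither rise passed the threshold, and the 3 falls did.

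PTGS2, the inducible cyclooxygenase, ranged from -2.08 to 1.19 in pregnant and from -1.70 to 1.15 in cyclic cows. Its change was -0.33 (SE 0.34, adjusted p = 0.536 by limma), and the states overlapped almost fully. With a random slide block the change was 0.14 and with the slide fixed 2.29, so its direction was not settled. The prostaglandin receptors PTGER2 (0.23), PTGER3 (-0.51) and PTGER4 (-0.48), the constitutive cyclooxygenase PTGS1 (-0.16) and the degrading enzyme HPGD (0.15) did not pass the threshold.

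Among 25 genes of steroid receptors and metabolism 1 fell (4%, near the 3.27% of all probes) and none rose. That gene was the estrogen receptor ESR1. It was at -0.71 to 1.10 in pregnant (median 0.05) and 0.49 to 1.59 in cyclic cows (median 0.92). Of 12 pregnant cows, 9 lay below every cyclic cow, and the highest pregnant values belonged to small-embryo animals. ESR1 fell by 0.86 log2 units (SE 0.19, adjusted p = 0.00286 by limma). The change was -1.18 with large and -0.42 with small embryos. The progesterone receptor PGR, through which the hormone of the corpus luteum acts, was at -0.74 to 0.42 against -0.60 to 0.58, a change of -0.28 (SE 0.15, adjusted p = 0.201).

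**Figure D3:**
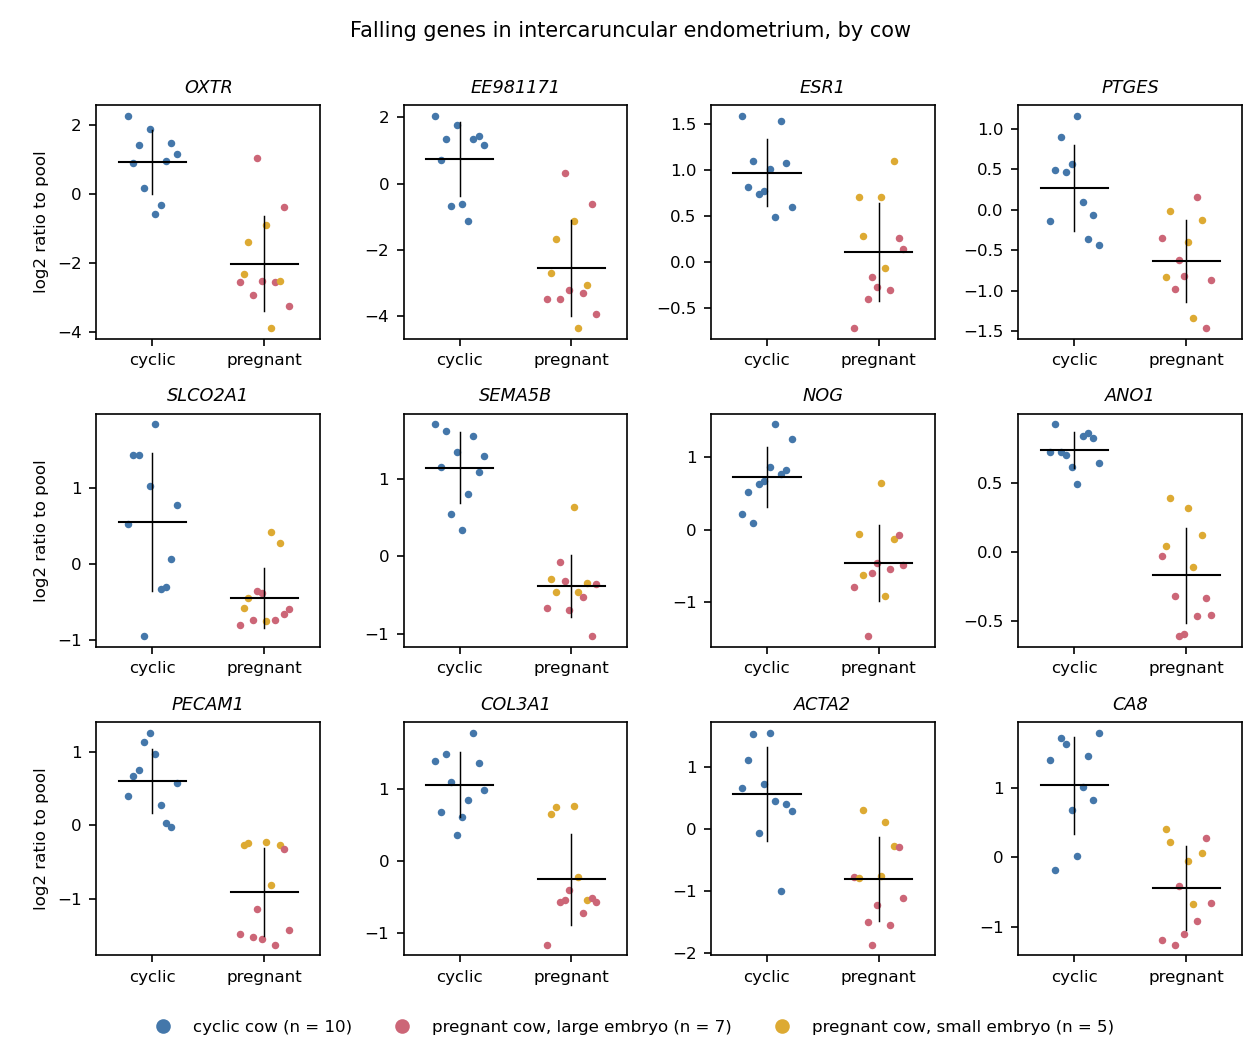
Log2 ratio to the pool of 12 falling probes in each cow, cyclic cows (n = 10) left and pregnant cows (n = 12) right, coloured by embryo size; lines are group means and bars 1 SD, and each panel has its own vertical scale. ANO1 and PECAM1 do not overlap between the states, while OXTR and EE981171 have the largest falls, with pregnant cows inside the cyclic range.

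Nutrient carriers moved in both directions. Of 18 glucose and monocarboxylate carriers tested 2 rose and 2 fell (11.1% each, beside 4.01% and 3.27% of all probes). The facilitative glucose carrier SLC2A1 (GLUT1) was at -0.84 to 1.27 in pregnant (median 0.06) and -1.76 to 0.09 in cyclic cows (median -1.26), and rose by 1.29 (SE 0.26, adjusted p = 0.00142 by limma). All 12 pregnant cows were above the cyclic mean and 6 above every cyclic cow. SLC5A1 (SGLT1), which couples glucose uptake to sodium, rose by 0.92 (adjusted p = 0.0113). It did not pass with a random slide block, and on the shared slide it was higher in the pregnant cows by 1.82. Both rises were larger with large embryos (1.77 and 1.28) than with small ones (0.62 and 0.42).

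A pair of other facilitative carriers, SLC2A3 and SLC2A4, fell, and 14 of the 18 carriers passed in neither direction. SLC2A3 (GLUT3) was at -0.79 to 0.42 in pregnant (median -0.40) and -0.04 to 1.24 in cyclic cows (median 0.91), with 10 pregnant cows below every cyclic cow. It fell by 1.11 log2 units (SE 0.16, adjusted p = 5.39e-05 by limma), but a second probe of the gene gave -0.30 (adjusted p = 0.515). SLC2A4, the insulin-responsive GLUT4, fell by 0.62 log2 units (adjusted p = 0.00212). Its change lay between -0.58 and -0.56, just short of 1.5-fold, without cow Non-Pregnant_9778, Non-Pregnant_3811 or Pregnant_9790. The sequences of these probes, from the study's probe list, are given for the pair that rose and for the probe of SLC2A3 that fell, since its 2 probes differ:
SLC2A1: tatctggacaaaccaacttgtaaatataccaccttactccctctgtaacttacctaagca
SLC5A1: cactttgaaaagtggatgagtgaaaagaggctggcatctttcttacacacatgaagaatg
SLC2A3: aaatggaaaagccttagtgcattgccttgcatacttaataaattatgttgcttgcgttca

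Among 34 amino acid and peptide carriers, 4 fell (11.8%) and 2 rose (5.88%), beside 3.27% and 4.01% of all probes. SLC15A3, a lysosomal carrier of histidine and small peptides that is also known in immune cells, was at -0.93 to 1.01 in pregnant and -1.81 to -1.02 in cyclic cows, with no overlap, and rose by 1.51 (SE 0.22, adjusted p = 5.23e-05 by limma). The taurine carrier SLC6A6 rose by 0.68. SLC38A3, a glutamine carrier, was at -0.84 to 0.87 in pregnant and 0.53 to 1.46 in cyclic cows and fell by 0.83 log2 units (adjusted p = 0.00323), with 8 pregnant cows below every cyclic one. The cystine carrier SLC7A11 fell by 0.79, SLC38A4 by 0.72 and the large neutral amino acid carrier SLC7A5 by 0.64 log2 units. SLC7A11 and SLC38A4 did not pass with a random slide block.

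Of 55 ion and metal carriers 3 rose (5.45%) and 1 fell (1.82%), near the shares over all probes (4.01% and 3.27%). The median was -0.14, and 39 of the 55 changes were below 0, as were 7715 of all 14711 probes. The zinc importer SLC39A2 rose by 1.05 (adjusted p = 0.00124 by limma) and the iron exporter ferroportin, SLC40A1, by 0.75 (adjusted p = 0.00423), with 0.87 from its second probe. Carbonic anhydrases went in both directions. The membrane-bound CA4 rose by 0.64 (adjusted p = 0.0188), a change of 0.56 without cow Pregnant_9921 or cow Pregnant_926 and not past the threshold with a random slide block. CA8, a relative without enzyme activity, was at -1.25 to 0.41 in pregnant and -0.18 to 1.79 in cyclic cows. It fell by 1.47 log2 units (SE 0.26, adjusted p = 0.0005), and the difference on the shared slide was -0.39.

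**Figure D4:**
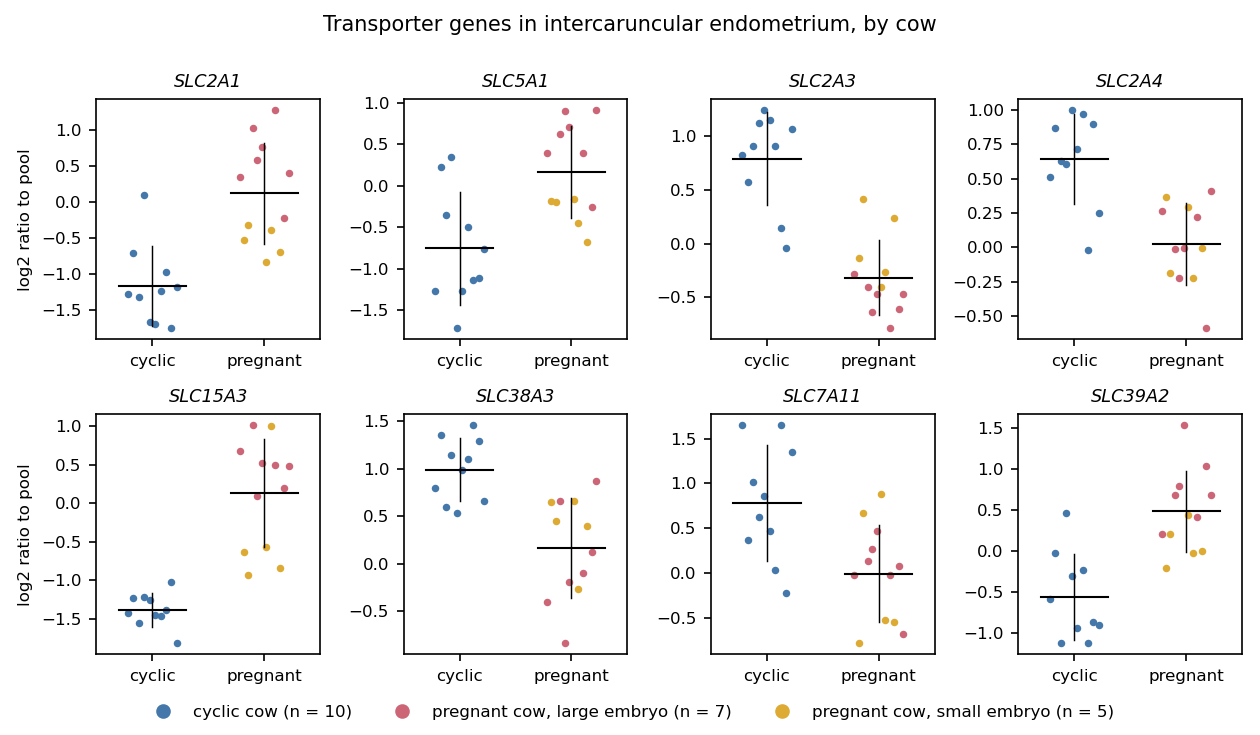
Log2 ratio to the pool of carrier genes in each cow, cyclic (n = 10) left and pregnant (n = 12) right, coloured by embryo size. Lines are means and bars 1 SD, and each panel has a vertical scale of its own. SLC2A1 and SLC5A1 lie higher and SLC2A3 and SLC2A4 lower in pregnant cows, and SLC15A3 does not overlap between the states.

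Channels fell more often than they rose, 6 (14%) against 1 (2.33%) of 43 tested, with a median change of -0.17. The shares over all probes were 3.27% falling and 4.01% rising. ANO1, a calcium-activated chloride channel, separated the states completely, at -0.61 to 0.39 in pregnant and 0.49 to 0.92 in cyclic cows, and fell by 0.90 log2 units (SE 0.11, adjusted p = 7.59e-06 by limma). CFTR, a chloride channel activated through cyclic AMP, rose by 0.68 (adjusted p = 0.0182). The potassium channel genes KCNK12, KCNE3 and KCNJ16 fell by 1.36, 1.32 and 1.00 on the log2 scale. The ranges of these 3 genes overlapped between the states, and none passed with a random slide block. On the shared slide the difference was 1.36 in KCNK12, against the direction of its fall, and -1.40 in KCNE3 and -0.49 in KCNJ16. The water channel AQP1, which endothelium carries, fell by 0.90 and TRPC4 by 0.60 log2 units. ANO4, a relative of ANO1 outside that list, fell by 1.56 log2 units (adjusted p = 0.00043), with 11 pregnant cows below every cyclic one.

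Among 43 secreted proteins of the uterine fluid 6 rose (14%) and 3 fell (6.98%), beside 4.01% and 3.27% of all probes. The median change was 0.16. Osteopontin, SPP1, an adhesive phosphoprotein of uterine secretions, was at -4.09 to -0.16 in pregnant (median -1.75) and -4.56 to -2.30 in cyclic cows (median -3.80), and rose by 1.66 (SE 0.45, adjusted p = 0.0117 by limma). In all, 7 pregnant cows were above every cyclic cow and the others were within the cyclic range. IGFBP1, which binds insulin-like growth factors, rose by 1.49 (adjusted p = 0.00297) from a median of -1.59 to one of -0.02. Follistatin, FST, an activin-binding protein, rose by 1.31 (adjusted p = 0.00565), and by 1.34 on its second probe. The leukemia inhibitory factor receptor LIFR (0.87) and the cathepsins CTSS (0.76) and CTSZ (0.59) also rose. LIFR is a receptor, and it is counted among the 6 that rose. SPP1 and FST did not pass with a random slide block, and on the shared slide they were higher in the pregnant cows by 1.91 and 1.96.

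Trefoil factor TFF3, a mucosal peptide secreted with mucus, was at -2.07 to 1.08 against -1.61 to 2.77 and fell by 1.24 log2 units (SE 0.41, adjusted p = 0.0336 by limma). Leaving out any 1 of 8 cows took TFF3 off the threshold, and over all fits without 1 cow its change ranged from -1.46 to -0.97. It did not pass with a random slide block or without cows Pregnant_9790 and Non-Pregnant_9786, and the difference on the shared slide was -0.35. Transferrin, TF, fell by 0.69 log2 units (adjusted p = 0.00731). The uterine serpin SERPINA14, a major progesterone-regulated product of the glands, had a change of 0.52 (adjusted p = 0.244), and gastrin-releasing peptide GRP one of -0.33 (adjusted p = 0.279).

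The probe that the array describes as TIMP3, an inhibitor of matrix proteases, fell by 0.99 log2 units (SE 0.15, adjusted p = 7.52e-05 by limma), at -0.46 to 0.58 in pregnant and 0.57 to 1.68 in cyclic cows. For this probe 11 pregnant cows lay below every cyclic cow. The array's gene column names the same probe CHRNA3, a nicotinic receptor subunit, so its sequence is given to let the 2 names be told apart. A second probe with the gene symbol CHRNA3 fell by 0.94 log2 units.
TIMP3 or CHRNA3: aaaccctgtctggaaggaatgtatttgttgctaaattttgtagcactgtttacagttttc

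Of 75 genes of the secretory pathway and protein folding in the endoplasmic reticulum, none rose, with a median change of -0.04. A single gene fell (1.33%, beside 3.27% of all probes). That gene was CREB3L4, a transcription factor of secretory cells, which fell by 0.79 log2 units (SE 0.28, adjusted p = 0.0475 by limma). Leaving out any 1 of 18 cows took it off the threshold, and over all fits without 1 cow its change ranged from -1.01 to -0.67. It did not pass with a random slide block either.

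Of 52 mucins and glycosylation enzymes 2 rose (3.85%) and 3 fell (5.77%), near the shares over all probes. MGAT4A, which adds a branch to N-linked sugar chains, rose by 1.75 (SE 0.35, adjusted p = 0.00135 by limma), from -2.94 to -1.30 in cyclic to -1.59 to 1.53 in pregnant cows. The rise of MGAT4A was 2.39 with large and 0.85 with small embryos. The sulfotransferase CHST2 rose by 0.68 on one probe and 0.66 on another, and CHST15, which sulfates chondroitin, fell by 0.77 log2 units (adjusted p = 0.000271), with 10 pregnant cows below every cyclic one. ST6GAL1, a sialyltransferase, fell by 0.65 log2 units (adjusted p = 0.00087). CHST2 and ST6GAL1 did not pass with a random slide block. The mucin MUC1, a surface glycoprotein of the uterine epithelium, had a change of -0.05 (adjusted p = 0.846).

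Of 83 genes of lipid uptake and metabolism, 6 rose (7.23%) and 2 fell (2.41%), beside 4.01% and 3.27% of all probes, and the median was -0.01. FABP3, a carrier of fatty acids in the cytosol, was at -2.14 to 1.23 in pregnant and -2.71 to -1.75 in cyclic cows. It rose by 1.46 (SE 0.33, adjusted p = 0.004 by limma), with 11 pregnant cows above every cyclic cow. SOAT1, which esterifies cholesterol for storage, rose by 0.89 (adjusted p = 0.00148), ELOVL6, which lengthens fatty acids, by 0.85 (adjusted p = 0.0013), and the lipid droplet protein PLIN2 by 0.62. Changes of FABP3, SOAT1 and ELOVL6 were 2.08, 1.25 and 1.18 with large and 0.59, 0.38 and 0.39 with small embryos. PPARG, a nuclear receptor that governs lipid storage, was at 0.01 to 1.74 against 0.94 to 2.15 and fell by 0.89 log2 units (adjusted p = 0.0102). It did not pass with a random slide block, and on the shared slide it was higher in the pregnant cows by 0.29. The lipoprotein receptor SCARB1 fell by 0.60 log2 units.

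Central carbon and polyamine metabolism held 4 rising (5.48%) and 2 falling genes (2.74%) among 73, with a median of 0.00. These shares are near those over all probes, 4.01% and 3.27%. PFKFB3, which makes the activator of glycolysis fructose 2,6-bisphosphate, rose by 0.81 (adjusted p = 0.00146 by limma), and its relative PFKFB4 by 0.65. PCK2, the mitochondrial form of phosphoenolpyruvate carboxykinase, rose by 0.83 (adjusted p = 0.00832). The nitric oxide synthases NOS3 and NOS2 fell by 0.90 and 0.77 log2 units (adjusted p = 0.0115 and 0.00114), NOS3 being the endothelial form. Of 57 cytochrome P450 and conjugating enzymes 3 rose (5.26%) and 2 fell (3.51%), also near these shares. CYP26A1, which breaks down retinoic acid, rose by 1.61 (adjusted p = 0.00671), a rise that did not pass with a random slide block, and CYP39A1, an oxysterol hydroxylase, by 1.37 (adjusted p = 0.00456). Aldehyde dehydrogenase ALDH2 rose by 0.79 (adjusted p = 0.00216).

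A probe described as CYP2C18, and matched by its gene number to CYP2C90, had the largest fall of the enzymes named here. It was at -3.25 to -0.50 in pregnant (median -1.72) and -1.08 to 2.78 in cyclic cows (median 0.91), with 9 pregnant cows below every cyclic one. CYP2C90 fell by 2.49 log2 units (SE 0.48, adjusted p = 0.00112 by limma), a 5.6-fold change. LOC521910, described as similar to CYP2C18 too, fell by 1.87 log2 units (adjusted p = 0.00217). Genes of this family are close copies, and either probe may bind transcripts of the other.

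In the WNT list 2 of 46 genes rose (4.35%) and 4 fell (8.7%), beside 4.01% and 3.27% of all probes, with a median of -0.13. DKK1, a secreted WNT antagonist, was at -2.68 to 0.49 in pregnant (median -0.63) and -4.61 to -1.27 in cyclic cows (median -3.01), and rose by 1.96 (SE 0.39, adjusted p = 0.00122 by limma). RSPO1, a secreted protein that strengthens WNT signals, rose by 1.81 (SE 0.30, adjusted p = 0.000243), with 9 pregnant cows above every cyclic cow. It also passed with a fixed slide block. ZNRF3, a membrane ligase that removes WNT receptors and that R-spondins hold back, fell by 0.85 log2 units (adjusted p = 0.00546). WNT6 fell by 0.82, TCF7L1 by 0.74 and WNT5A by 0.59 log2 units. ZNRF3 and WNT6 did not pass with a random slide block. The difference on the shared slide was -0.01 in ZNRF3, and WNT6 was higher in the pregnant cows there by 0.32.

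Genes of the TGF-beta and activin family fell in 8 of 52 cases (15.4%) and rose in 1 (1.92%), FST, with a median of -0.16. Of all probes 3.27% fell and 4.01% rose. The 3 ligands TGFB2 (-0.83), TGFB1 (-0.74) and TGFB3 (-0.64) all fell, as did the BMP antagonists noggin (NOG) and gremlin (GREM1), the activin subunit INHBA (-0.61), the coactivator TGFB1I1 (-0.79) and ID4 (-0.61). NOG was at -1.47 to 0.64 in pregnant and 0.09 to 1.45 in cyclic cows and fell by 1.19 log2 units (SE 0.19, adjusted p = 0.000204 by limma). For NOG, 11 pregnant cows were below every cyclic cow, and a small-embryo cow was the exception. GREM1 fell by 1.11 log2 units (SE 0.21, adjusted p = 0.000787). With a random slide block 7 members still fell, and over fits without 1 cow 5 to 10 did.

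Of 53 genes of insulin-like and other growth factors 5 rose (9.43%) and 4 fell (7.55%), beside 4.01% and 3.27% of all probes. IGFBP1 (above), FGF10 (0.99), IGFBP5 (0.84), FGF1 (0.75) and betacellulin, BTC (0.71), rose, and FGF1 did not overlap between the states. The FGF10 probe was dim, as it was not well above background in at least 6 pregnant and 5 cyclic cows. FGFR1, a receptor of fibroblast growth factors, was at -1.73 to 0.25 in pregnant and -0.47 to 1.13 in cyclic cows and fell by 1.01 log2 units (SE 0.23, adjusted p = 0.00358 by limma). The fall was 1.42 with large embryos and 0.43 with small ones. The matricellular proteins CCN3 (NOV on the array) and CCN1 (CYR61) fell by 1.33 and 0.93 log2 units (adjusted p = 0.0141 and 0.0444), and neither passed with a random slide block. CCN1 was off the threshold without any 1 of 15 cows, and its change ranged from -1.08 to -0.78 over fits without 1 cow. PDGFB fell by 0.74 log2 units.

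Among 66 homeobox and gland transcription factors 3 fell (4.55%, near the 3.27% of all probes) and none rose. HOXC6 was at -1.37 to 0.85 in pregnant and 0.36 to 1.36 in cyclic cows and fell by 0.95 log2 units (SE 0.21, adjusted p = 0.00281 by limma). GRHL1, a regulator of epithelial genes, fell by 0.66 log2 units (adjusted p = 0.000549), with 10 pregnant cows below every cyclic one. EGR1, an immediate early gene, fell by 1.13 log2 units (adjusted p = 0.0217), with overlapping ranges. It did not pass with a random slide block, and on the shared slide the difference was -2.69.

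**Figure D5:**
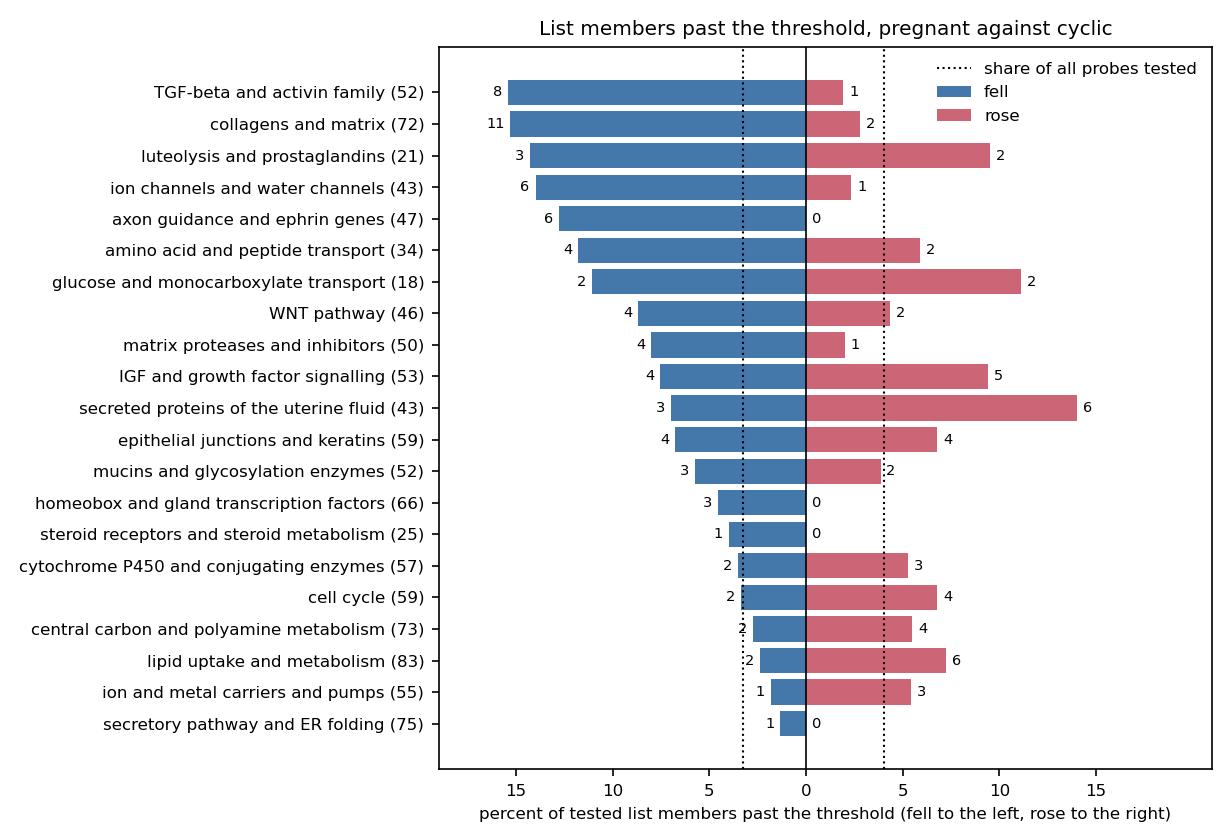
Share of the tested members of 21 gene lists that fell (left) or rose (right) past the threshold, with the counts at the bars and the number of tested genes in brackets; dotted lines mark the shares over all probes tested (3.27% and 4.01%). The TGF-beta and collagen lists have the largest falling shares and the list of secreted proteins the largest rising share, each resting on 11 genes or fewer.

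Matrix genes had more falls than any other list in the plot of list shares, 11 of 72 (15.3%), with 2 rising (2.78%). Of all probes 3.27% fell and 4.01% rose. The list's median was -0.37, and 63 of the 72 changes were below 0, against 7715 of all 14711 probes. COL3A1, the main chain of type III collagen, was at -1.17 to 0.76 in pregnant (median -0.53) and 0.36 to 1.78 in cyclic cows (median 1.04), and fell by 1.32 log2 units (SE 0.22, adjusted p = 0.000315 by limma). In COL3A1 9 pregnant cows lay below every cyclic cow, and the 3 highest pregnant cows carried small embryos. COL1A1 fell by 1.01 log2 units (adjusted p = 0.00624), COL12A1 by 0.97, COL1A2 by 0.84 and COL5A3 by 0.79. The crosslinking enzyme LOXL4 fell by 1.00 log2 units, and thrombospondin THBS1 (-0.92), periostin POSTN (-0.70), laminin LAMA4 (-0.67), osteoglycin OGN (-0.65) and elastin ELN (-0.65) fell too. The call of LOXL4 was lost with a random slide block, and 8 members fell in that fit. COL3A1, COL1A1 and COL1A2 are also stromal markers, so this list and the lower stromal marker level share values. With large embryos alone 21 matrix genes fell, beside 803 of all probes, and with small embryos alone none did, beside 56 of all probes.

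Agrin, AGRN, a heparan sulfate proteoglycan of basement membranes, was at -0.20 to 1.17 in pregnant (median 0.62) and -1.24 to -0.69 in cyclic cows (median -0.96). The states did not overlap, and AGRN rose by 1.52 (SE 0.14, adjusted p = 6.21e-08 by limma), by 1.67 with large and 1.31 with small embryos and by 1.53 on the shared slide. Fibromodulin, FMOD, which binds collagen fibrils, rose by 0.91 (adjusted p = 0.00243). Of 50 matrix proteases and inhibitors 4 fell (8%) and 1 rose (2%), beside 3.27% and 4.01% of all probes. ADAMTS4, which cleaves aggrecan and versican, was at -1.36 to 0.28 against -0.29 to 1.18 and fell by 1.23 log2 units (SE 0.18, adjusted p = 5.81e-05). ADAM23 fell by 0.68 log2 units. ADAMTS6 fell by 0.79 log2 units (adjusted p = 0.0336), but its second probe gave -0.05, values were missing in several cows (11 pregnant and 7 cyclic values), and it did not pass without any 1 of 11 cows or with a random slide block. Over fits without 1 cow its change ranged from -0.96 to -0.71. The epithelial serine protease prostasin, PRSS8, rose by 0.86 (adjusted p = 0.00618).

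Endothelial and muscle genes were among the 20 largest falls. PECAM1, an adhesion molecule between endothelial cells, was at -1.63 to -0.23 in pregnant and -0.02 to 1.26 in cyclic cows, without overlap, and fell by 1.52 log2 units (SE 0.22, adjusted p = 4.89e-05 by limma). CD93, a glycoprotein of endothelium and myeloid cells, also did not overlap (-1.27 to 0.28 against 0.52 to 1.61) and fell by 1.53 log2 units (adjusted p = 5.97e-06), and a second probe fell by 0.86. Smooth muscle actin, ACTA2, fell by 1.38 log2 units (SE 0.29, adjusted p = 0.00199). In all 3 the fall was larger with large (-1.91, -1.94 and -1.76) than with small embryos (-0.97, -0.95 and -0.85). The lower levels of the endothelial and smooth muscle lists given above move with these values, and their part was not tested.

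Guidance genes, which steer axons and vessels, fell in 6 of 47 cases (12.8%) and none rose, with a median of -0.24. Of all probes 3.27% fell and 4.01% rose. SEMA5B, a transmembrane semaphorin, was at -1.03 to 0.64 in pregnant (median -0.40) and 0.34 to 1.70 in cyclic cows (median 1.22), with 1 small-embryo cow, Pregnant_3807, above the lowest cyclic animal. It fell by 1.52 log2 units (SE 0.18, adjusted p = 1.9e-06 by limma), and the difference on the shared slide was -0.35. PLXNA2, a semaphorin receptor, fell by 0.87 on one probe and by 2.00 on another, and the semaphorin receptor NRP1 by 0.74 log2 units (adjusted p = 0.0026). SEMA3A and UNC5B fell by 0.63 and 0.62 on the log2 scale. EFNB3 fell by 0.69 log2 units (adjusted p = 0.029), but a second probe changed in the opposite direction, by 0.20 (adjusted p = 0.0213). It did not pass without cow Pregnant_3805, Pregnant_3803, Non-Pregnant_9778 or Non-Pregnant_9813 (change -0.66 to -0.58) or with a random slide block.

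Junction and keratin genes split evenly, 4 rising and 4 falling of 59 (6.78% each, beside 4.01% and 3.27% of all probes). The tight junction protein CLDN4 was at -1.26 to 1.77 in pregnant and -2.35 to -0.08 in cyclic cows and rose by 1.10 (SE 0.31, adjusted p = 0.0139 by limma), with CLDN3 (0.60) and E-cadherin, CDH1 (0.71). KRT17 rose by 1.02 (adjusted p = 0.0345), but it did not pass without any 1 of 12 cows (0.90 to 1.20 over fits without 1 cow). CLDN10, another claudin, fell by 0.84 log2 units (adjusted p = 0.0131), as did KRT7 (-0.75), KRT6A (-1.41) and CDH13 (-0.99). The KRT6A probe was dim in the sense given for FGF10 above, and its fall is counted among the 4. CDH13 is an adhesion protein of vessel walls, and 11 pregnant cows lay below every cyclic cow for it (adjusted p = 0.000544). KRT17 and CLDN10 did not pass with a random slide block.

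Of 59 cell cycle genes 4 rose (6.78%) and 2 fell (3.39%), beside 4.01% and 3.27% of all probes. Cyclin CCNB2, which drives entry into mitosis, was at -0.88 to 1.16 in pregnant and -1.70 to -0.87 in cyclic cows and rose by 1.44 (SE 0.24, adjusted p = 0.000245 by limma). Its rise was 1.93 with large and 0.76 with small embryos. CDKN2B, an inhibitor of the kinases that start the cycle, fell by 1.67 log2 units (adjusted p = 0.00468), with 9 pregnant cows below every cyclic cow and 1 at 1.41, inside the cyclic range. RRM2 (0.69) and MCM10 (0.83), both used in DNA synthesis, rose with adjusted p-values of 0.0434 and 0.0398, and they did not pass without any 1 of 15 and 12 cows (0.60 to 0.82 and 0.68 to 0.95 over fits without 1 cow). CDKN2B, RRM2 and MCM10 did not pass with a random slide block. Their differences on the shared slide were -0.28, 1.4 and 0.40. CCND3 rose by 0.59 and BIRC5 fell by 0.59 log2 units.

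Other large falls lay outside these lists. FJX1, a secreted or membrane-bound regulator of growth and cell polarity, was at -1.94 to -0.32 in pregnant and -0.54 to 1.61 in cyclic cows and fell by 1.63 log2 units (SE 0.22, adjusted p = 2.61e-05 by limma). C5orf23 fell by 1.63 (adjusted p = 0.00573) and SYNDIG1 (C20orf39 on the array), a synaptic membrane protein, by 1.60 log2 units (adjusted p = 5.44e-05). NPPC, the precursor of C-type natriuretic peptide, fell by 1.59 log2 units (adjusted p = 0.012), but it did not pass with a random slide block and was higher in the pregnant cows of the shared slide by 0.17. ISLR2, a membrane protein of neurons, fell by 1.47 log2 units (adjusted p = 0.000799). GADD45G, a stress-response gene, fell by 1.41 log2 units (adjusted p = 0.00974), although no pregnant cow lay below the lowest cyclic one. GADD45G did not pass with a random slide block. A further pair of transcripts has no gene name here, BF773914 (fall of 1.39, adjusted p = 0.00312) and AW289295 (fall of 1.47, adjusted p = 0.00155). AW289295, placed by its description on chromosome 2 at 58204956 to 58205519, had 10 pregnant and 9 cyclic values and was higher in the pregnant cows of the shared slide by 0.50.

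The rises are given briefly, as most of the large ones are immune genes. All 50 interferon-stimulated genes tested rose, by 0.66 to 3.65 with a median of 2.25, and all 50 passed with a random slide block. Over all probes tested 4.01% rose. The list was chosen with earlier results of these data known, so its count is a description. The 2 largest rises of all belonged to transcripts without a gene name. CB530781, placed by its description on chromosome 11 at 70660164 to 70661203, was at -1.68 to 1.07 in pregnant and -5.05 to -3.93 in cyclic cows and rose by 4.53 (SE 0.28, adjusted p = 8.27e-11 by limma), a 23.1-fold change. CB441016 rose by 3.75 (SE 0.31, adjusted p = 8.64e-09). Neither overlapped between the states, and both also passed with a fixed slide block. Their probe sequences are shown, since no name identifies them:
CB530781: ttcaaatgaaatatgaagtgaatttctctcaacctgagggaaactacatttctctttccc
CB441016: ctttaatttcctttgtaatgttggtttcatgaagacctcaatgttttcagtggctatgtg

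The next 6 were RSAD2 (3.65), the LBP-like LOC514978 (3.64), USP18 (3.62, bubp43 on the array), IFIT3 (3.56), the DAMP-1-like LOC507402 (3.52) and the IFIT1-like LOC508267 (3.39), none with overlapping states. Of these, 4 (RSAD2, USP18, IFIT3 and LOC508267) are interferon-induced genes or relatives of one.

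Some probes were at background in a whole state, so a lower bound of their change was estimated from signals. MGAT5B, which branches sugar chains, was not well above background in any pregnant cow and was detected in 7 of 10 cyclic cows. Its estimated bound was 3.33-fold, higher in cyclic cows, and its change in the fit without the filter on signal was -1.77. In the other direction, the estimated bound was 4.72-fold for FLJ14503 and 2.77-fold for 1 probe of KMT2A. Each was detected in 8 of 12 pregnant cows, and their changes without that filter were 2.67 and 2.39. No bound is given for SLFN11, HSH2D and 1 probe of ADAR, which were not well above background in any cyclic cow either. The bound from their signals exceeded the fold of their ratios to the pool. The bounds above come from the same calculation, so they are estimates and not strict limits. SLFN11 (described as similar to schlafen 9) was detected in 11 of 12 pregnant cows and rose by 2.60 (adjusted p = 6.76e-06 by limma). In the fit without the filter on signal HSH2D (11 of 12 cows) and ADAR (8 of 12) both had a change of 1.61. Probes of MGAT5B, FLJ14503, HSH2D, ADAR and KMT2A here did not enter the fit because of the filter on signal, and 4 other probes of KMT2A did not pass the threshold. A second probe of ADAR rose by 1.33. The bound sets the mean log2 signal of the brighter state against, for each array of the other, the higher of the lowest signal well above background and the probe's own.

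The changes of intercaruncular tissue were set against those of caruncular tissue from the same cows to see which of them differ. A first fit by limma did not pair the 2 tissues of a cow. In it, the difference of the 2 changes passed an adjusted p under 0.05 in 3 of 14711 probes (0.0204%). At an unadjusted p under 0.05 there were 1085, and with the cow as a fixed block 152 passed (below). Of the 481 falling probes, 247 also fell past the threshold in caruncular tissue and 462 had the same sign there, against 11759 of all 14711 probes. Both tissues came from the same cows, whose deviations from their group means correlated between the tissues, so the shared direction is a description. Of the 3 probes, 2 passed the threshold in intercaruncular tissue. MAPK8IP1, a scaffold of the JNK kinase pathway, was at -0.44 to 1.11 in 8 pregnant and 1.37 to 2.48 in 4 cyclic cows that had a value, and fell by 1.49 log2 units (SE 0.28, adjusted p = 0.00297). Its change in caruncular tissue was 0.12 (adjusted p = 0.567), a difference of -1.61 (adjusted p = 0.0425). MX2, an interferon-induced GTPase, rose by 2.90 here and by 4.89 in caruncular tissue, a difference of -1.99 (adjusted p = 0.0157).

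The same cow gave both tissues. With cow as a fixed replicate block, the change differed between the tissues in 152 probes, 68 of them past the threshold in intercaruncular tissue. Of the 53 that rose here, 52 rose less than in caruncular tissue. The other 15 fell here, and 10 of these fell more than in caruncular tissue. Among the 10 were MAPK8IP1, the ectonucleotidase ENTPD1 (-0.94 here and -0.33 in caruncular tissue) and the ATP synthase component ATP5MK (-0.59 and 0.05). The 5 that fell less here were CLDN10 (-0.84 and -2.06), KRT7 (-0.75 and -2.07), KCNK12 (-1.36 and -2.38), CYP2C90 (-2.49 and -3.40) and PIGR (-1.12 and -2.27), the receptor that carries immunoglobulin A across glandular epithelium. These genes outside the rule for naming were picked after their values were seen.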

How the data were processed

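Intercaruncular endometrium of 12 pregnant and 10 cyclic cows was measured on 22 of 48 two-colour Agilent arrays, with caruncular samples of the same cows used for the comparison between tissues and for the filter. Per the file headers, spot intensities were extracted by the authors with Feature Extraction 9.5.3.1, which took off local background and scaled one dye to the other by LOWESS on each array, and the log10 values are the ratio of sample (Cy5) to pool (Cy3). There was no dye swap. The deposited matrix holds log2 values, equal to the scanner files within 1e-05 in 40 of 48 columns.

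The log10 ratios were converted to log2, averaged within a probe and centred on each array's median, which was already 0. Outlier spots and control spots were left out. A probe entered the fit when at least 22 of 44 samples had a Cy5 signal of 80 units or more that was also well above background (14711 of 21475 probes). Values were missing for some cows in 324 of them. Symbols came from the array's descriptions (15194 probes), from accessions (3524) and from gene numbers (9987) matched to the reference table, and 4401 probes had none. Probe sequences were found for 65 of 108 named probes in the study's probe list.

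The states were compared by limma 3.58.1 in R 4.3.3 (data.table, version 1.17.8), and the tissues by an interaction over 44 samples. The script was tested on simulated data. Figures were drawn in Python 3.11.15 with matplotlib 3.10.9 and pandas 2.3.3. Every cow's deviation from its group mean correlated between its tissues by over 0.1 (22 of 22 cows, 0.111 to 0.871, median 0.62), so the cow pairs the tissues. Cows were numbered by the labels, and nothing beyond them says how samples were processed in parallel. The cow, not the array, is the replicate, and the number of cows limits the precision.

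The gene lists and the rule for naming genes were chosen with earlier results of these data known. Named were OXTR, ESR1, PGR and PTGS2, up to 4 members of each list with the largest changes past the threshold, the 20 largest falls and 8 largest rises, the 6 largest lower bounds, and probes that differed between tissues. Dim probes, in the sense given for FGF10, were passed over when list members and largest falls were named. A gene with several probes was represented by the brightest. List counts are of genes and the shares of all probes tested are of probes. Members named beyond this rule were chosen after their values were seen. Alternatives were normexp (offset 50) with loess, no centring, no or a stricter filter, slide or scan date as a block, the methods' t-test (Welch), the deposited matrix, all 44 samples in 1 fit, each embryo size alone, each cow left out and the cow as a block. Chosen after seeing the data were leaving out cows Pregnant_9790 and Non-Pregnant_9786, centring on tested probes and list counts under every setting. The values of 1 further list member past the threshold are not reported here.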

Additional observations from a re-analysis of the deposited data

Results flagged for a closer look

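The 103 named probes in the fit were examined except PPARG, AW289295, ADAMTS6 and MAPK8IP1, which lacked a value in some of the 10 cyclic cows. In 7 probes a cyclic cow's gap to its nearest neighbour, as a share of the range of the 10 cyclic cows, exceeded Dixon's 95% limit for 10 values. Chance gives such a gap in about 1 of 20 groups. Cow Non-Pregnant_9786, the only 1 of the 22 intercaruncular arrays on its slide and in a separate scan batch, was the animal apart in 6 of them. It was the lowest cyclic cow in ZNRF3 (gap 0.52 of the range, at 0.06 against 1.01 for the next), ISLR2 (0.481, at -0.01 against 0.85), LOC507402 (0.518, at -3.68 against -2.97), LOC508267 (0.706, at -4.71 against -3.90) and MX2 (0.51, at -3.87 against -3.54), and the highest in COL1A1 (0.593, at 1.69 against 0.23). In MGAT4A cow Non-Pregnant_9813 was the lowest (0.493, at -2.94 against -2.13). Each of these 7 probes passed the threshold without its cow too.

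The change in pregnant cows differed between the tissues by -1.994 in MX2 (adjusted p = 0.0157 by limma) and by -1.611 in MAPK8IP1 (adjusted p = 0.0425), intercaruncular minus caruncular. That fit did not pair the tissues of a cow. With the cow as a fixed block the adjusted p by limma was 0.000356 in MX2 and 0.00651 in MAPK8IP1. All 12 pregnant cows were above every cyclic cow for MX2 in intercaruncular tissue, and the 8 pregnant cows with a value for MAPK8IP1 were below the 4 cyclic cows with one.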

How the results depend on the processing

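Of the 1071 probes past the threshold (590 rising, 481 falling), every one still tested kept its direction in each alternative except with a fixed slide block, where 957 did (376 of the falling), and with small embryos alone, where 1070 did. A random slide block gave 656 calls (237 falling), 616 of them among the 1071, and took 31 of 103 named probes off the threshold, and a fixed one gave 129 (93 rising, 36 falling), 88 of them among the 1071, and left 15 with the sign and the side of the threshold they had (PGR among them, which passes in neither). Large embryos alone gave 1675 (803 falling) and small embryos alone 241 (185 rising, 56 falling), from fewer cows. The other alternatives gave 849 to 1243 calls. Without 1 cow in turn there were 924 to 1189 calls, 528 to 658 rising and 396 to 549 falling, and 0 to 8 named probes were lost at a time. PTGS2, which did not pass, had a change of 0.1423 with a random and 2.292 with a fixed slide block. Signs also turned with the fixed block in WNT6 (0.3236), PPARG (0.2859), KCNK12 (1.362), NPPC (0.1744) and AW289295 (0.4965), none of them past the threshold there. That block rests on 3 pregnant cows and 1 cyclic cow. Differences between the tissues numbered 3, 152 with a fixed and 435 with a random replicate block for the cow, and 11 without the filter on signal, and the cow block changes no other result, as each cow has 1 state. The cause was not tested. The number of cows, and in dim probes the signal over background, limit the precision.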
